A study of Mus musculus with 4 samples.

Results

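The C/EBP genes on the array, Cebpa, Cebpb and Cebpd, were described together with Ddit3, the gene of the C/EBP relative CHOP. They were taken by gene symbol and make up 4 of the 84 genes of adipogenesis and lipid metabolism on a mouse PCR array. The array was run on liver RNA of male C57BL/6J mice that were 2 months old at the start and were kept on their diets for 5 weeks. The ND group received a normal calorie diet in which fat gave 10% of the kcal, protein 20% and carbohydrate 70%. The HFD group received a high fat diet in which fat gave 60%, protein 20% and carbohydrate 20%. The groups labelled ND + *mol*-miR pool and HFD + *mol*-miR pool, called pool-treated ND and pool-treated HFD here, received the same diets and, by oral gavage every 2 days, a pool of small RNAs purified from an aqueous extract of *Moringa oleifera* seeds. Whether the groups without pool received a vehicle is not given in the sources used here. The study used 12 mice, 3 in each group, and 1 liver sample per group was measured, with 1 well per gene. It is not stated whether a sample came from a single mouse or from several, so the differences below have no error, no test and no p-value.

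The C/EBP proteins are transcription factors of the basic leucine zipper class. They bind DNA as pairs, either with themselves or with each other, and are best known from liver and fat cells. C/EBPα (Cebpa) maintains the metabolic programme of mature hepatocytes and restrains their division, and it sustains the mature state of fat cells. C/EBPβ (Cebpb) takes part in gluconeogenesis, the acute phase response and liver regeneration, and C/EBPδ (Cebpd) is induced in inflammation. Both act early in fat cell formation, ahead of Cebpa and Pparg. CHOP (Ddit3) is induced by endoplasmic reticulum stress and pairs with C/EBP proteins, which keeps them from their usual binding sites.

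The members lie on 4 mouse chromosomes. In the RefSeq annotation of GRCm38.p6, Cebpa spans 2636 bases (chr7:35119293-35121928), Cebpb 1518 bases (chr2:167688915-167690432), Cebpd 2260 bases (chr16:15887286-15889545) and Ddit3 5499 bases (chr10:127290793-127296291). Cebpa, Cebpb and Cebpd are genes without introns, so primers within them cannot span an intron, whereas Ddit3 has introns. Promoter stretches are shown for Cebpa, Cebpb and Ddit3, the members for which the RefSeq table held a promoter. The last 100 bases before the annotated start site are given on the plus strand, on which all 3 genes lie, with matches to the motifs searched in capitals.

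Cebpa (chr7:35119193-35119292): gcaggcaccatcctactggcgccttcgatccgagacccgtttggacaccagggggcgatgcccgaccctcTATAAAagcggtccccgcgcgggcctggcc
Cebpb (chr2:167688815-167688914): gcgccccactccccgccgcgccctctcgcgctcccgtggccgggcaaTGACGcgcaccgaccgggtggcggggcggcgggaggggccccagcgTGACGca
Ddit3 (chr10:127290693-127290792): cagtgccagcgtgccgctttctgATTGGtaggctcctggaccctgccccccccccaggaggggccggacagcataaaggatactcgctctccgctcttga

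The motifs were searched on both strands in windows of 300 bases, 250 before the start site and 50 after it. They were the CCAAT box, the C/EBP palindrome core TTGCGCAA, the cyclic AMP response element TGACGTCA, its shorter form TGACG (which lies within it), the C/EBP-ATF element TGATGCAA, TATAAA and the endoplasmic reticulum stress element, which contains a CCAAT box. In the Cebpb window TGACG occurred at positions -53 to -49 and -7 to -3, on the opposite strand at -180 to -176, and TATAAA at 22 to 27. TGACG was present in 20.8% of the 32851 windows of this length in the table and in 32.5% of the 83 windows of array genes. The Ddit3 window held a CCAAT box on the opposite strand at -77 to -73. This motif was found in 37.4% of all windows and in 32.5% of those of array genes. The Cebpa window held TATAAA at -30 to -25 (13.6% of all windows, 13.3% of those of array genes). The share of G and C was 67.3% for Cebpa, 80.7% for Cebpb and 60.7% for Ddit3. Its median was 52.7% over all windows and 62% over those of array genes. These matches describe the sequence and are not binding sites shown by these data.

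The threshold cycle (Ct) is the PCR cycle at which the product crosses a set fluorescence, so a Ct that is earlier by 1 cycle stands for a doubling of template. The Ct values of the array genes were set against the mean Ct of 5 reference genes (Actb, Gapdh, Gusb, Hprt and Hsp90ab1), which lay between 21.6 and 22.2 in the 4 samples. Gapdh moved by 2.18 cycles over the samples and Hsp90ab1 by 0.593. The genomic DNA control, a well whose primers amplify an untranscribed stretch of DNA, crossed at cycle 26.8 in ND, 28.8 in pool-treated ND, 34.7 in HFD and 33.4 in pool-treated HFD. It therefore moved between the samples much more than the reference genes did. Of the liver cell markers on the array (Agt, Nr0b2, Nr1h3 and Ppara), all 4 had a Ct in every sample, Agt between 23.3 and 24.0. Of the fat cell markers (Adig, Adipoq, Cfd, Lep and Retn), 5 of 5 lay within 3 cycles of the genomic DNA control in ND, 4 in pool-treated ND, 3 in HFD and 1 in pool-treated HFD, as did 63, 55, 17 and 8 of the 84 array genes. Fewer cells of a type and less RNA per cell cannot be told apart in such whole liver samples. For HFD against ND, pool-treated HFD against HFD and pool-treated HFD against ND, the study describes the prevailing direction of the array genes as opposite to the one that the named Ct columns give. Whether samples were exchanged in a table was not tested. Each sample is therefore named as its label and column name give it, and every direction below rests on those names.

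Relative to the mean of the reference genes, Cebpa was nearly level over the 4 liver samples. Its Ct was 23.3 in ND, 23.7 in pool-treated ND, 24.0 in HFD and 23.6 in pool-treated HFD. Expressed as a percentage of the mean of the reference genes, its level was 31.9% in ND, 34.1% in pool-treated ND, 24.1% in HFD and 38.2% in pool-treated HFD. The HFD sample was the lowest and the other samples lay close together. Normalized Cebpa varied by 0.665 cycles, the smallest range but 1 among the 84 array genes, whose median range was 2.76 cycles. It was the steadiest of the 4 members with this normalization, but not with the median Ct of the array genes as the reference. Its change between samples depended on the reference, however. In HFD against ND its log2 fold change was -1.37 with Actb alone and 2.28 with the median Ct of the array genes.

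Cebpb gave the earliest Ct of the array genes in every sample. The Ct was 19.7 in ND, 20.0 in pool-treated ND, 21.2 in HFD and 19.8 in pool-treated HFD. Relative to the reference mean these values correspond to 370% in ND, 443% in pool-treated ND, 166% in HFD and 531% in pool-treated HFD. As with Cebpa, the HFD sample stood below the other samples, here by 1.16 cycles from its neighbour ND, and the remaining gaps were 0.262 and 0.26 cycles. Primer pairs differ in efficiency, so an earlier Ct than that of another gene is not read as a higher transcript level.

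Cebpd behaved differently from the other members. Its Ct was 25.3 in ND, 27.4 in pool-treated ND, 30.7 in HFD and 29.8 in pool-treated HFD. The level relative to the reference mean was 7.55% in ND, 2.57% in pool-treated ND, 0.237% in HFD and 0.526% in pool-treated HFD. Both HFD samples lay below both ND samples, an order shared with 44 of the 84 array genes (52.4%). The opposite order held for 0 of the members and 5 of the array genes (5.95%). The normalized range of Cebpd was 4.99 cycles, and its Ct ran in the same order over the samples as that of the genomic DNA control. This order was not particular to Cebpd, as other array genes had it too, among them Klf2, Adig and Runx1t1.

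Ddit3 was higher in both samples with pool than in both samples without it, an order found for 11 of the 84 array genes (13.1%). The Ct was 24.2 in ND, 23.5 in pool-treated ND, 24.9 in HFD and 23.9 in pool-treated HFD. Its level was 16.3% of the reference mean in ND, 38.0% in pool-treated ND, 13.2% in HFD and 32.2% in pool-treated HFD. The closest samples with and without pool, pool-treated HFD and ND, were separated by 0.98 cycles. Between the diets, the samples with pool differed by 0.24 cycles and those without by 0.31 cycles. These differences are not a spread within a treatment, since each group had 1 sample. Ddit3 was earlier in both samples with pool in the raw Ct values too, by 0.356 cycles at the closest. The separation was lost with Hsp90ab1 alone as the reference (-0.232) and with the median Ct of the array genes (-0.214).

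**Figure D1:**
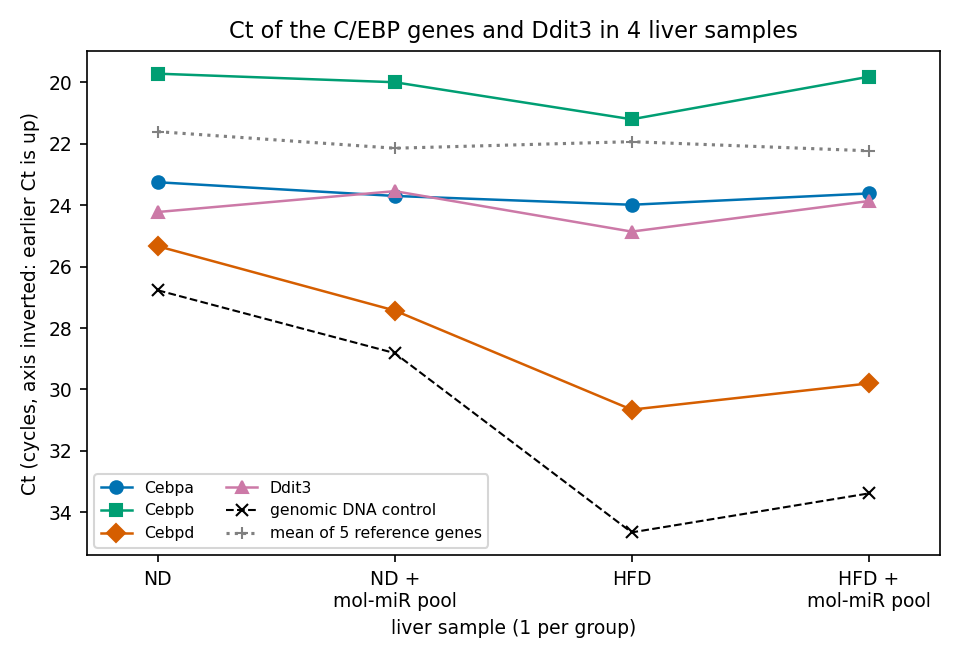
Ct in cycles (inverted axis) of Cebpa, Cebpb, Cebpd and Ddit3, the genomic DNA control and the mean of the 5 reference genes in the 4 liver samples, 1 point per well (for the reference genes, the mean of 5 wells), with lines joining the points as a guide. Cebpa, Cebpb and Ddit3 stay within 1.48 cycles over the samples, while Cebpd runs from 25.3 to 30.7 and the genomic DNA control from 26.8 to 34.7.

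Cebpa and Cebpb were also higher in both samples with pool than in both samples without it, but by 0.094 and 0.262 cycles. The order was lost for both with Hsp90ab1 alone, Actb alone or the median Ct as the reference. It was also lost for both in the raw Ct values, where ND was the earliest sample. For Cebpa it was lost with Gusb alone or Hprt alone as well. This order, which was looked at after the values had been seen, held for 3 of the 4 members and for 11 of the 84 array genes (13.1%). The opposite order held for 0 of the members and 1 of the array genes (1.19%). The HFD sample was the lowest of the 4 for all 4 members, and for 69 of the 84 array genes (82.1%).

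Between the diets without pool, HFD was compared with ND. With 1 sample per group, a difference by diet or pool cannot be told apart from one between samples. A fold change above 1.5 or below 0.5 was counted as a change, the limits of the study's methods. Of the 4 members, 2 (Cebpb and Cebpd) were below 0.5 and 0 were above 1.5, while 72.6% of the array genes were below 0.5 and 3.57% above 1.5. The median log2 fold change was -0.78 for the members and -2.53 for the 84 array genes. Cebpd was lower by the most, with a fold change of 0.0314 (log2 -4.99), and it remained below 0.5 with each reference tried (log2 -5.96 to -2.31). In ND, however, it was 1.44 cycles from the genomic DNA control, so that it was left out of the comparison when a distance of at least 3 cycles was required. The positive PCR control of the plate also crossed later in HFD (21.2) than in ND (16.9 and 17.9). Cebpb had a fold change of 0.448 (log2 -1.16). It was between the limits with Hprt alone or Gapdh alone, and above 1.5 with the median Ct of the array genes (log2 1.53). Cebpa (log2 -0.41) and Ddit3 (log2 -0.31) were between the limits, and their direction turned with Hprt alone, with Gapdh alone and with the median Ct. Among the 84 genes ordered from the highest fold change, Ddit3 was at place 12, Cebpa at 14, Cebpb at 25 and Cebpd at 62. With the direction turned the places were 73, 71, 60 and 23.

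On the high fat diet, pool-treated HFD was compared with HFD. All 4 members were above 1.5 and 0 were below 0.5, in an array in which 84.5% of the genes were above 1.5 and 1.19% below 0.5. The members' median log2 fold change of 1.22 was lower than the array's 1.46. The fold change was 3.20 for Cebpb (log2 1.68), 2.45 for Ddit3 (1.29), 2.22 for Cebpd (1.15) and 1.59 for Cebpa (0.67). Cebpb and Ddit3 were higher with each reference tried, between 0.43 and 2.69 and between 0.037 and 2.30 on the log2 scale. Cebpd was lower with the median Ct (-0.103), and Cebpa was lower with Hprt alone (-0.14), Hsp90ab1 alone (-0.11) and the median Ct (-0.59). With Hprt alone or Hsp90ab1 alone, Cebpb was the member that remained above 1.5, and with the median Ct 0 members did.

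On the normal diet, pool-treated ND was compared with ND. Ddit3 alone of the 4 members was above 1.5 with a fold change of 2.33 (log2 1.22), as were 4.76% of the array genes. It was the third of the 84 genes from the highest, and it remained above 1.5 with each reference tried (log2 0.68 to 2.13). In ND, however, Ddit3 was 2.55 cycles from the genomic DNA control, so that it was left out when a distance of at least 3 cycles was required. Cebpd was below 0.5 with a fold change of 0.341 (log2 -1.55), as were 48.8% of the array genes, and it was between the limits with Gapdh alone (-0.82) and with the median Ct (-0.64). Cebpa (log2 0.094) and Cebpb (0.26) were between the limits. Both turned to lower values with Hsp90ab1 alone or Actb alone, Cebpa also with Hprt alone, and both passed 1.5 with Gapdh alone or the median Ct. The median log2 fold change was 0.18 for the members and -0.99 for the array.

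Relative to ND, the pool-treated HFD sample had 1 member above 1.5 (Ddit3, fold change 1.97, log2 0.98) and 1 below 0.5 (Cebpd, 0.0697, log2 -3.84). The shares of all array genes were 14.3% and 53.6%. Ddit3 turned to a lower value with Hsp90ab1 alone (-0.232). Cebpa (log2 0.26) and Cebpb (0.52) lay between the limits, and both were lower with Hsp90ab1 alone, to -0.95 and -0.69. Both passed 1.5 with Gapdh alone (1.81 and 2.08) and with the median Ct (1.69 and 1.95), and Cebpa was at -0.005 with Gusb alone. Between the samples that both received the pool, pool-treated HFD against pool-treated ND, Cebpd was again below 0.5 (0.205, log2 -2.29), as were 34.5% of the array genes. The other members differed by -0.24 (Ddit3), 0.16 (Cebpa) and 0.26 (Cebpb) on the log2 scale, each turning direction with at least 1 of the references. In this comparison 0 members were above 1.5, against 23.8% of the array genes. When at least 3 cycles to the genomic DNA control were required, Cebpd was left out of both comparisons and Ddit3 of the one against ND. The positive PCR control crossed later in pool-treated HFD (22.0, 1 well) than in the ND samples (16.9 to 18.4). These comparisons share samples with those above and are given side by side for that reason.

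**Figure D2:**
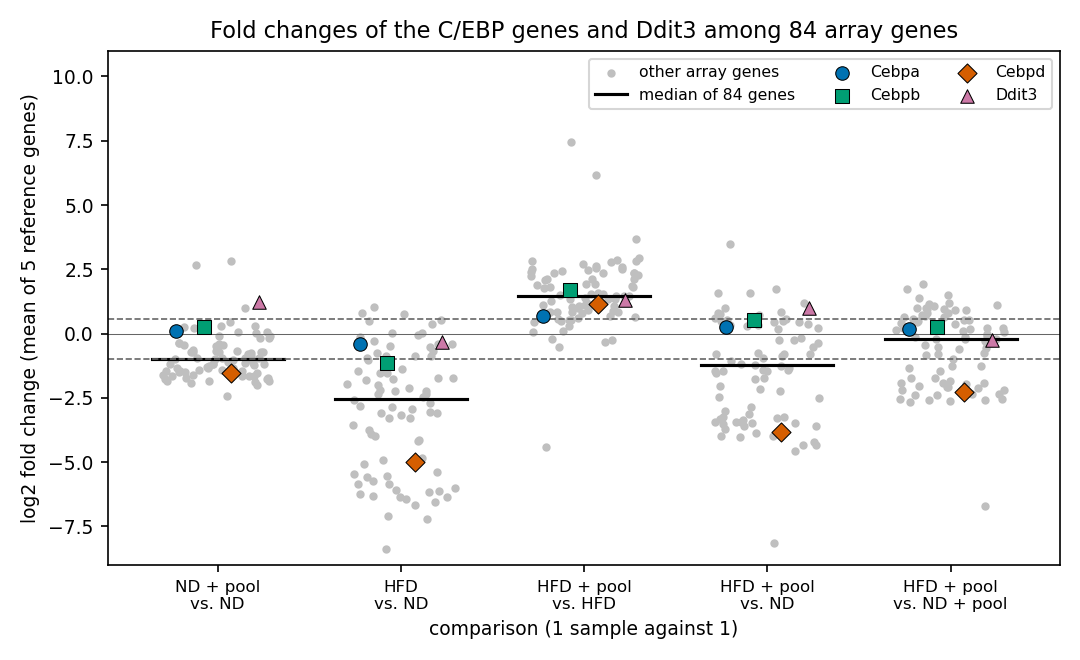
Log2 fold change, normalized to the mean of the 5 reference genes, of the 4 members (coloured symbols) and the other array genes (grey) in 5 comparisons of 1 sample against 1, with bars at the median of the 84 genes and dashed lines at the limits of 1.5 and 0.5. Cebpd lies at -4.99 in HFD against ND, below the array median of -2.53, while the other members lie between -1.16 and -0.31, and all 4 members are above the upper limit in pool-treated HFD against HFD.

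The fold changes of samples with pool against those without were also set side by side for the diets. The log2 fold change on the ND was subtracted from that on the HFD. This difference was 0.071 for Ddit3, 0.57 for Cebpa, 1.42 for Cebpb and 2.70 for Cebpd, and the median of the 84 genes was 2.28. Ddit3 thus had nearly the same fold change on both diets with the mean of the reference genes, at place 4 from the lowest difference. With the median Ct of the array genes the difference became -2.10 for Ddit3, -1.60 for Cebpa and -0.75 for Cebpb, while Cebpd stayed above 0 (0.54). Ddit3 was also below 0 with Gusb, Hprt or Hsp90ab1 alone and reached 1.32 with Actb alone, and Cebpa was at -0.037 with Gusb alone and -0.107 with Hprt alone.

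**Figure D3:**
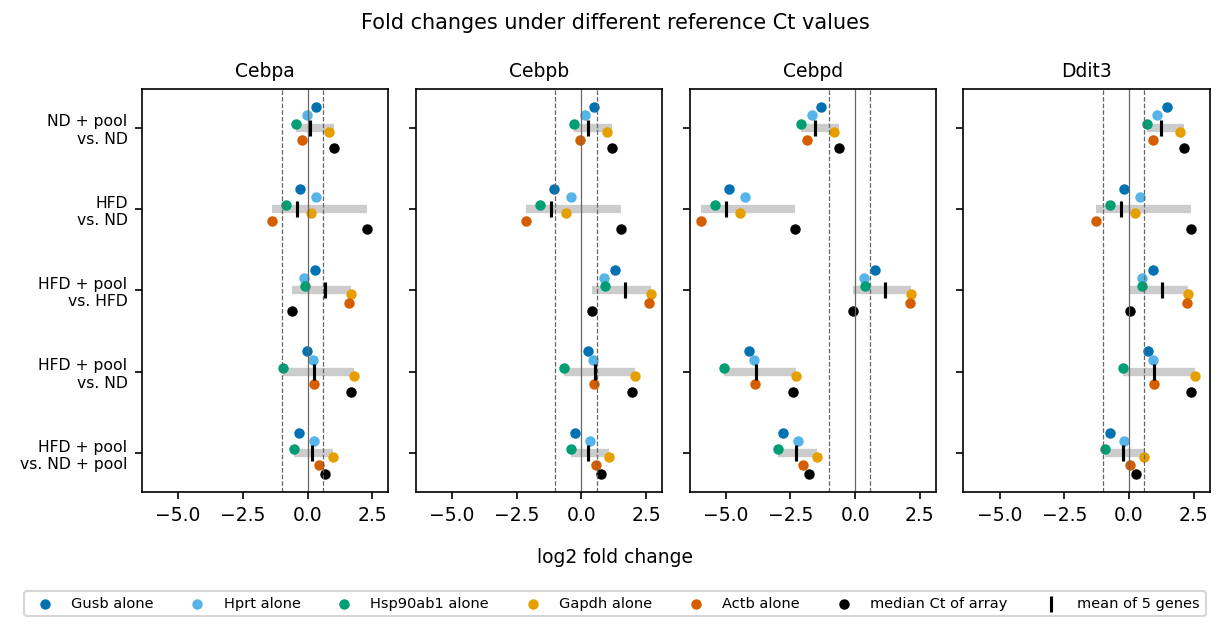
Log2 fold change of each member in the 5 comparisons with each of the 5 reference genes alone, with the median Ct of the array genes and with the mean of the 5 reference genes (black tick), where grey bars span the values, + pool marks pool-treated samples and dashed lines mark the limits of 1.5 and 0.5. Cebpd in HFD against ND stays between -5.96 and -2.31 and Ddit3 in pool-treated ND against ND between 0.68 and 2.13, whereas the values of Cebpa cross 0 in all 5 comparisons.

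Because CHOP and the C/EBP proteins pair with one another, the members were also compared with each other within each sample, which needs no reference gene. The log2 ratio of Ddit3 to Cebpa, taken from the Ct values, was -0.97 in ND, 0.16 in pool-treated ND, -0.87 in HFD and -0.25 in pool-treated HFD. It was higher in both samples with pool, by 1.12 on the ND and by 0.62 on the HFD. The ratio of Ddit3 to Cebpb was -4.50 in ND, -3.54 in pool-treated ND, -3.65 in HFD and -4.04 in pool-treated HFD. It was thus higher by 0.96 with the pool on the ND and lower by 0.39 on the HFD (change -0.39), and ND had the lowest value. The ratio of Cebpb to Cebpa was 3.53 in ND, 3.70 in pool-treated ND, 2.78 in HFD and 3.80 in pool-treated HFD, so the HFD sample stood 0.75 below ND (change -0.75). The ratio of Cebpd to Cebpa changed by -1.65, -4.59 and -4.10 from ND to pool-treated ND, HFD and pool-treated HFD. Only the changes of a ratio between samples can be read, since its level depends on the primers.

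**Figure D4:**
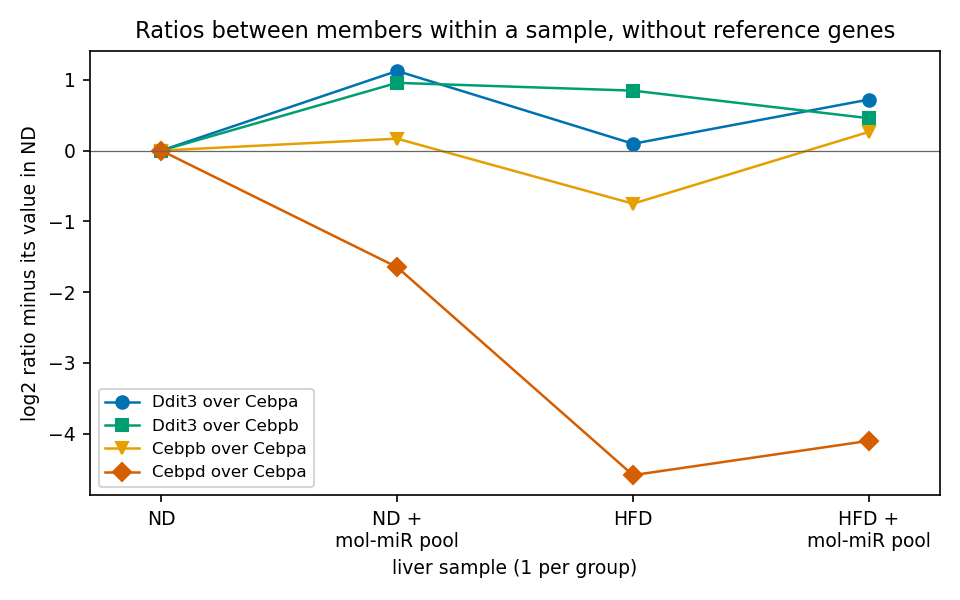
Log2 ratio between pairs of members, calculated from the Ct values of the same sample and given relative to ND, in the 4 liver samples, with lines joining the points as a guide. Ddit3 over Cebpa is 1.12 above ND in pool-treated ND and 0.72 above it in pool-treated HFD, Cebpb over Cebpa is below ND in HFD alone, and Cebpd over Cebpa falls to -4.59 in HFD.

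The members differed in their distance to the genomic DNA control measured in the same sample. Cebpb was earlier than the control by 7.05 cycles in ND, 8.82 in pool-treated ND, 13.4 in HFD and 13.6 in pool-treated HFD, the largest distance of all array genes. Cebpa was earlier by 3.52 cycles in ND, 5.12 in pool-treated ND, 10.7 in HFD and 9.76 in pool-treated HFD. The distance of Ddit3 was 2.55 cycles in ND, 5.27 in pool-treated ND, 9.79 in HFD and 9.52 in pool-treated HFD. In ND it was thus among the 63 array genes that lay less than 3 cycles from the control. Cebpd had the smallest distances, 1.44 cycles in ND, 1.39 in pool-treated ND, 3.99 in HFD and 3.58 in pool-treated HFD. Between ND and pool-treated ND its Ct moved by 2.09 cycles and that of the control by 2.04. From ND to HFD they moved by 5.32 and 7.88 cycles. The part of genomic DNA in the values of Cebpd, and of Ddit3 in ND, was not tested. When a distance of at least 3 cycles was required in both samples, Cebpd and Ddit3 dropped out of HFD against ND and pool-treated ND against ND, and all 4 members kept their place in pool-treated HFD against HFD.

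The array genes whose normalized values over the 4 samples were most like those of each member were found by the root mean square difference after centring. For Ddit3 the closest gene of the array was Cebpb (0.376 cycles), followed by Sirt2 (0.443) and Cebpa (0.461). Lmna (0.092 cycles), Klf3 (0.218) and Tcf7l2 (0.241) were closest to Cebpa. Ppara (0.133) and Sirt2 (0.14) were closest to Cebpb. The closeness did not hold to the same degree the other way. In the order from Cebpb, Ddit3 was at place 8 and Cebpa at 11. In the order from Cebpa, Cebpb was at place 14 and Ddit3 at 19. The genes closest to Cebpd were Klf2 (0.20), Adig (0.227) and Runx1t1 (0.251). Cebpd was far from the other members, at 1.86 cycles from Cebpa, 1.73 from Cebpb and 1.95 from Ddit3, and it was 1.2 cycles from the profile of the genomic DNA control. For Cebpa, Cebpb and Ddit3 the distance to that profile was 3.02, 2.85 and 3.03 cycles. With 4 points that share their normalization, these values only describe the likeness.

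Genes that act with the C/EBP proteins were taken from lists. Of 7 genes that C/EBP proteins activate in fat cells (Adipoq, Fabp4, Lep, Lpl, Pparg, Retn and Slc2a4), 7 were below 0.5 in HFD against ND (72.6% of all array genes), with a median log2 fold change of -2.35 against -2.53 for the array. The highest value was that of Pparg, the nuclear receptor that directs fat cell formation (-1.73), and the lowest that of the hormone gene Retn (-6.35). In pool-treated HFD against HFD, 6 of the 7 were above 1.5 (84.5% of all array genes), the exception being the glucose transporter gene Slc2a4 (-0.52). On the ND, 5 were below 0.5 with the pool (48.8% of all array genes) and 0 above 1.5 (4.76%). In the ND sample, 4 of the 7 lay less than 3 cycles from the genomic DNA control, as did 63 of the 84 array genes.

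The regulators that act on Cebpb early in fat cell formation were Creb1, Egr2 and Klf4. All 3 were below 0.5 in HFD against ND (72.6% of all array genes), between -4.19 for Egr2 and -2.86 for Creb1 (log2), and all 3 were above 1.5 in pool-treated HFD against HFD (84.5% of all), Egr2 by the most (2.77). Egr2 was also above 1.5 in pool-treated ND against ND (0.98), where Creb1 and Klf4 were below 0.5. Of the 5 nuclear proteins that bind C/EBP proteins (Gata2, Gata3, Prdm16, Rb1 and Runx1t1), 5 were below 0.5 in HFD against ND (72.6% of all array genes) and 4 were above 1.5 in pool-treated HFD against HFD (84.5% of all), with Rb1, the retinoblastoma gene, at 0.078. On the ND, 4 of them were below 0.5 with the pool (48.8% of all array genes) and the fifth, Runx1t1, was at -0.96. All of the genes in these lists, 3 and 5, lay less than 3 cycles from the genomic DNA control in ND, where 63 of the 84 array genes did.

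The cell cycle genes at the G1 to S step were Ccnd1, Cdk4, Cdkn1a and E2f1. In HFD against ND 3 of the 4 were below 0.5 (72.6% of all array genes), Cdkn1a, an inhibitor of cyclin-dependent kinases, being the lowest (log2 -3.30), and Ccnd1, the gene of cyclin D1, was at 0.0056. In pool-treated HFD against HFD 2 were above 1.5 (84.5% of all), E2f1 by the most (1.49), and Ccnd1 was at -0.27. On the ND, 1 was below 0.5 with the pool (48.8% of all). All 4 lay less than 3 cycles from the genomic DNA control in ND, as did 63 of the 84 array genes.

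The fat cell markers were below 0.5 in HFD against ND for 5 of 5 genes (72.6% of all array genes). Their median log2 fold change was -6.09. In pool-treated ND against ND and in pool-treated HFD against ND, 4 of the 5 were below 0.5 (48.8% and 53.6% of all array genes), with medians of -1.63 and -3.59, and Cfd, the gene of adipsin, was above 1.5. The summed level of these markers, which adds up values of different primer pairs, was 35.1% of the reference mean in ND, 84.0% in pool-treated ND, 1.15% in HFD and 135% in pool-treated HFD. Cfd alone made up 12.0%, 76.2%, 0.762% and 133% in the same order, so the sums of the treated samples follow Cfd and not the other markers. Of the liver cell markers, 2 of 4 were below 0.5 in HFD against ND (72.6% of all array genes). Their summed level was 253%, 206%, 163% and 351% in the same order, of which Nr1h3 made up 186%, 143%, 110% and 277%. Nr1h3 and Ppara (10.3%) were lowest in HFD, as each member was, whereas Agt was highest there (38.1%) and Nr0b2 was lowest in pool-treated ND (4.27%, with 4.73% in HFD). The part of the cell composition in the values of the members was not tested.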

How the data were processed

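The authors deposited a score per well, the Ct as exported by the real-time PCR instrument with SYBR green detection, without normalization, for a Qiagen PAMM-049Z plate and 4 liver samples. A second deposited table holds the fold changes of the authors' own comparisons and was not used. Columns were assigned by name, low-fat diet standing for ND. All 84 gene names matched RefSeq symbols of GRCm38.p6, used for names, positions and promoters. The members, lists and alternatives were chosen with earlier results of these data known.

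A Ct that was missing or above 35 was taken as 35. The reference mean (5 genes) was subtracted, and the sign-changed difference of 2 samples was taken as the log2 fold change, assuming a doubling per cycle. Named were the 4 members, the extremes of each list and the 3 array genes closest to each member, of which 1 is not reported here. With 1 sample per group no test was made, and the number of arrays limits the precision. The calculation was tested on simulated data. Python 3.11.15, numpy 2.4.6, pandas 2.3.3 and matplotlib 3.10.9 were used.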

Additional observations from a re-analysis of the deposited data

Results flagged for a closer look

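Cebpa and Cebpb were lower on the HFD without the pool and slightly higher on it with the pool. For Cebpa the log2 difference between the diets was -0.41 without and 0.16 with the pool. For Cebpb it was -1.16 without and 0.26 with the pool. This switch was not particular to them, as other array genes had it too, among them Lmna, Ppara and Sirt2. Without the pool, Cebpa was above 0 with Hprt alone (0.338) or Gapdh alone (0.139), and both genes were with the median Ct. With the pool, both genes were below 0 with Gusb alone (-0.33 and -0.234) or Hsp90ab1 alone (-0.512 and -0.416). Cebpd went opposite ways with the pool on the diets, by -1.55 (log2) on the ND and by 1.15 on the HFD, as opposite signs were found for 67 of the 84 array genes. With 1 sample per group, the differences between diets or treatments were not tested.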

How the results depend on the processing

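No paired analysis was possible because each group has 1 sample. The reference Ct moved the member counts most. With Gapdh alone, 3 members were above 1.5 and 0 below 0.5 in pool-treated ND against ND, 1 was below 0.5 in HFD against ND, 3 were above 1.5 in pool-treated HFD against ND, and 2 in pool-treated HFD against pool-treated ND. With the median Ct of the array genes the same counts were 3, 0, 1, 3 and 2, with 3 above 1.5 in HFD against ND and 0 in pool-treated HFD against HFD. Hprt alone gave 1 below 0.5 in HFD against ND and 1 above 1.5 in pool-treated HFD against HFD. Hsp90ab1 alone gave 1 above 1.5 in pool-treated HFD against HFD and 0 in pool-treated HFD against ND, and Actb alone 4 below 0.5 in HFD against ND. Raw Ct values, and limits of 2 and 0.5, each gave 0 above 1.5 (or 2) in pool-treated HFD against ND. With the distance of at least 3 cycles to the genomic DNA control, the counts above and below were 0 and 0 in pool-treated ND against ND and in pool-treated HFD against ND, 1 below in HFD against ND and 0 below in pool-treated HFD against pool-treated ND, by construction, since Cebpd was left out of each and Ddit3 of those against ND. The other 85 recalculated counts were within 1.5 times the reported ones.

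Single values changed direction with the median Ct for Cebpa (2.28), Cebpb (1.53) and Ddit3 (2.38) in HFD against ND, and for Cebpa (-0.59) and Cebpd (-0.103) in pool-treated HFD against HFD. In that comparison Cebpa was at -0.14 with Hprt alone and -0.11 with Hsp90ab1 alone. With Hsp90ab1 alone Ddit3 was at -0.232 in pool-treated HFD against ND. The gap between samples with and without pool for Ddit3, examined after seeing the data, was 0.98 and became -0.232 with Hsp90ab1 alone and -0.214 with the median Ct. Another 31 recalculated single values also changed direction, and the fold changes among them lay between the limits under both settings. The cause of the dependence on the reference was not tested. The Ct limit changed no value of the members.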

Other observations

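The reverse transcription control wells gave a Ct in 2 of 3 wells of the pool-treated ND sample and in 0 of 3 wells of each other sample. The positive PCR control gave a Ct in 2 of 3 wells in ND, in 3 of 3 in pool-treated ND and in 1 of 3 in each of the HFD samples. Its Ct lay between 16.9 and 18.4 in the ND samples and was 21.2 in HFD and 22.0 in pool-treated HFD.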
